A study of Danio rerio with 19 samples.

Results

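This comparison set arch cells with heat-shock-driven NICD, the intracellular domain of a Notch receptor, against arch cells with the Gal4 driver alone. It rests on 2 of the 19 libraries of the series, 1 library for each condition, so no test between the conditions is possible and none was made. Both libraries held zebrafish cells sorted at 36 hours after fertilization by a pair of reporters, GFP under fli1a and DsRed under sox10, which together mark the neural crest cells of the pharyngeal arches. The labels give the genotype hspGal4;UASNICD to the first (called the NICD library here) and hspGal4 to the second (the Gal4 library), and both are given as heat shocked. Gal4 stood behind a heat-shock promoter, which is active in most cells of the embryo, so NICD was not restricted to the arches. The hour of the heat shock and the Notch gene from which NICD was taken are not given in the sources used here.

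The other 8 libraries of double-sorted cells (10 with these 2, called all-arch libraries) served as a background. They were hspGal4;UASEdn1 after heat shock, jag1b-/- and jag1b+/+ (1 library each), edn1-/- (2 libraries) and WT (3 libraries), all at 36 hours, with no heat shock given for the jag1b, edn1 and WT libraries. Across the 10, between 12516 and 13610 genes were listed at 1 TPM (the share of all transcripts, scaled per gene length) or more, and the 10 most abundant genes took 21.9% to 34.9% of all TPM. TPM keeps no read depth, so the depth behind each value is unknown and no counting error can be given. Later paragraphs also read WT libraries of other sorts. These were 2 sorted by hand2 with sox10 and 3 by fli1a alone, at 36 hours. Another 3, sorted by sox10 alone, were taken at 20, 28 and 36 hours.

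Notch is a receptor cut by proteases once a Delta or Jagged ligand on a neighbouring cell binds it. The freed NICD enters the nucleus, joins the DNA-binding protein Rbpj and switches on genes of the her, hey and nrarp families. In the zebrafish arches, Jag1b acting through Notch is known for dorsal (upper jaw) identity, and Endothelin 1 (Edn1) for ventral (lower jaw) identity, including hand2 and the ventral Dlx genes. In vessels, Notch signalling is known for its part in mural cells, the pericytes and smooth muscle of the vessel wall.

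A gene was called where its log2(TPM + 1) differed by at least 1 between NICD and Gal4 and it reached 10 TPM in the higher library, and "rose" and "fell" are used for called genes alone. Of 6037 genes at that level, 304 rose with NICD (5.04%) and 126 fell (2.09%), around a median difference of 0.15 over all of them. A second rule also asked that the difference exceed the widest gap between any pair of the 3 WT libraries, which left 234 that rose (3.88%) and 75 that fell (1.24%). The share that rose among the called genes depended on scaling: it was 70.7% here, but 53.4% (220 rose and 192 fell) with median-of-ratios rescaling and 53.3% (223 rose and 195 fell) with quantile normalization, which moved the median of all genes to -0.04 and -0.03. The first rule applied to pairs of WT libraries called 3.04% to 3.93% of genes in one direction and 2.91% to 17.0% in the other, so the number of called genes by itself does not set NICD against Gal4 apart from a pair of replicates. Among the 304 genes that rose, the NICD library lay above all 3 WT libraries in 239, within their range in 59 and below them in 6. Among the 126 that fell, it lay below all 3 in 79, within in 39 and above in 8. Over all 6037 genes, it lay above all 3 in 1189, within in 2967 and below in 1881. The called genes were chosen by their NICD value, so these positions were in part set in advance.

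**Figure D1:**
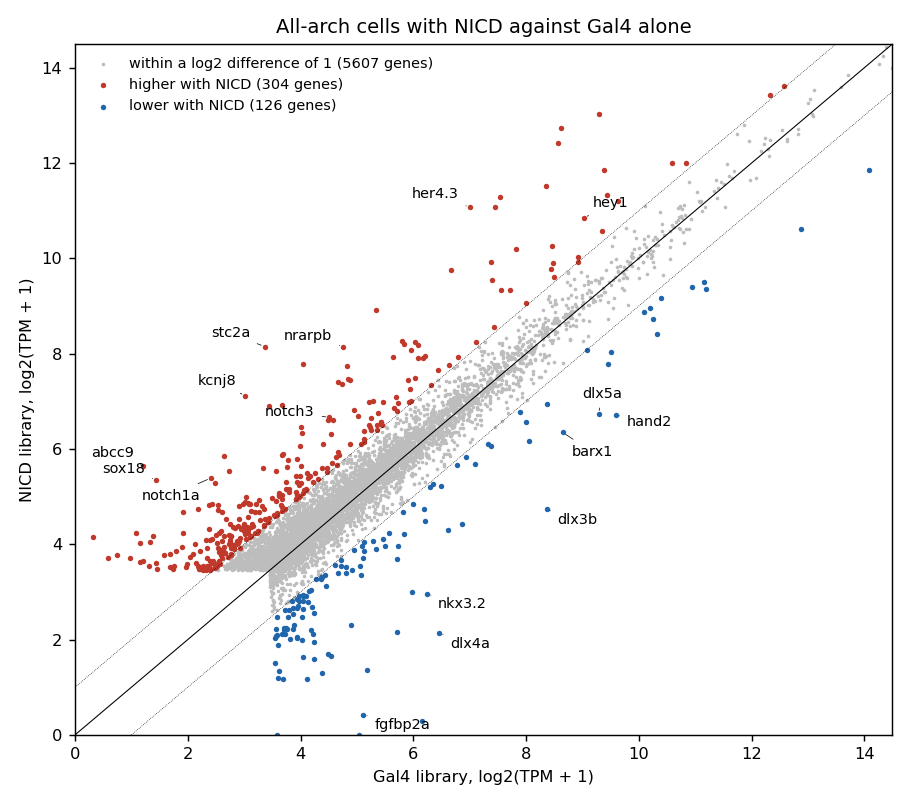
Level of each of the 6037 genes in the NICD library (vertical axis) against the Gal4 library (horizontal axis), both as log2(TPM + 1). Red points are the 304 genes that rose and blue points the 126 that fell; the solid line marks equal levels and the dotted lines a log2 difference of 1. Notch targets such as her4.3 lie far above the line, and hand2, dlx3b and dlx4a far below it.

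Among the receptors, notch1a rose most. It stood at 40.9 TPM with NICD, against 4.3 with Gal4, 5.07 with Edn1, 3.27 in jag1b-/-, 3.35 in jag1b+/+, 4.51 and 4.42 in edn1-/-, and 2.32, 3.91 and 3.72 in WT (log2 difference between NICD and Gal4 of 2.98). The NICD library stood alone, with no overlap with the other 9. As notch1a reached 10 TPM with NICD alone, it could only be called higher. Reads from a zebrafish notch1a transgene would be counted under this gene, so RNA of the transgene and of the native gene cannot be told apart. The receptor gene notch3 stood at 100.2 TPM with NICD, against 21.8 with Gal4, 41.8 with Edn1, 19.4 in jag1b-/-, 19.7 in jag1b+/+, 12.5 and 37.7 in edn1-/- and 14.7, 33.4 and 30.3 in WT (2.15), again above every other library. The third receptor at this level, notch2, was not called, at 18 TPM with NICD and 21.6 with Gal4. The remaining one, notch1b, stayed under 1 TPM in both.

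The genes that Notch is known to switch on rose in large part. Of 28 listed her, hes, hey, helt and nrarp genes, 17 reached 10 TPM. Of these, 14 rose and 0 fell, against 5.04% that rose among all genes, with a median difference of 2.63, and 8 passed the rule on the WT spread. The same counts of 14 and 0 were found under median-of-ratios and quantile scaling, and all 17 reached 10 TPM in both libraries. With the 5 her4 entries summed to 1 and the 2 her15 entries to another, 9 of 12 rose and 0 fell, with a median of 2.27. The NICD library was the highest of the 10 for 14 of the 17, against 8.93% of all genes. Their summed level was 25549 TPM with NICD and 7510.3 with Gal4, against 1892 to 8411 in the WT libraries.

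The her4 genes, which encode repressors of the basic helix-loop-helix class, rose strongly. The level of her4.3 was 2152 TPM with NICD, against 127 with Gal4, 129 with Edn1, 24.4 in jag1b-/-, 87.7 in jag1b+/+, 54.9 and 53.9 in edn1-/- and 57.9, 9.08 and 55.8 in WT (4.07). The level of her4.1 was 2512 TPM with NICD against 184 with Gal4 (3.77), and that of her4.4 was 483 against 39.4 (3.58). A pair of gene identifiers named her4.2 stood at 2952 and 2171 TPM with NICD, against 324 and 173 with Gal4 (3.18 and 3.64). These copies are nearly identical and lie next to each other beside her12, by gene order in RefSeq, so how reads were split among them is uncertain. Both her4.2 entries missed the rule on the WT spread, because WT replicate 2 was low for them, at 14.8 and 4.99 TPM, against 167 and 90.3 in replicate 1 and 169.8 and 70.9 in replicate 3.

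Related repressors followed. The level of her2 was 867.5 TPM with NICD, against 100.3 with Gal4, 329.6 with Edn1, 34.8 in jag1b-/-, 91.3 in jag1b+/+, 9.80 and 31.4 in edn1-/- and 32.5, 6.88 and 45.7 in WT (3.10). The level of her12 was 213.7 TPM with NICD and 27.3 with Gal4 (2.92), and that of her8a was 96.7 and 21.5 (2.12). The neighbours her15.1 and her15.2, which are also close copies, stood at 3711 and 743 TPM with NICD, against 667 and 167 with Gal4 (2.47 and 2.15). Neither her15 gene passed the rule on the WT spread, since WT replicate 2 again lay far below the other 2 WT libraries, at 24.9 and 8.10 TPM.

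The hey genes encode repressors of the same class. The level of hey2 was 162.7 TPM with NICD, against 25.5 with Gal4 and 9.62 to 43.2 in the other 8 libraries (2.63). The level of hey1, which is also a dorsal arch gene, was 1842 TPM with NICD, against 521.5 with Gal4, 1254 with Edn1, 698 in jag1b-/-, 922 in jag1b+/+, 1138 and 771 in edn1-/- and 782, 154 and 431 in WT (1.82). The NICD value of hey1 was the highest of the 10, yet the gap to Gal4 was smaller than that between WT replicates 1 and 2. The nrarp genes encode small feedback inhibitors of Notch. The level of nrarpb was 281.6 TPM with NICD, against 26 with Gal4, 84.9 with Edn1 and 22.1 to 49.1 in the other 7 libraries (3.39), and that of nrarpa was 2575 against 692 (1.89, not past the WT spread).

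Some members were not called. The repressor genes her6 and her9 were abundant and close in the pair of libraries, at 3112 and 1623 TPM with NICD, against 2802 and 1574 with Gal4. The level of hes2.2 was 31.9 TPM with NICD and 17.9 with Gal4 (0.80). The other 11 members stayed under 10 TPM in both libraries, the highest being hes6 at 8.16 TPM with NICD and 8.4 with Gal4.

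**Figure D2:**
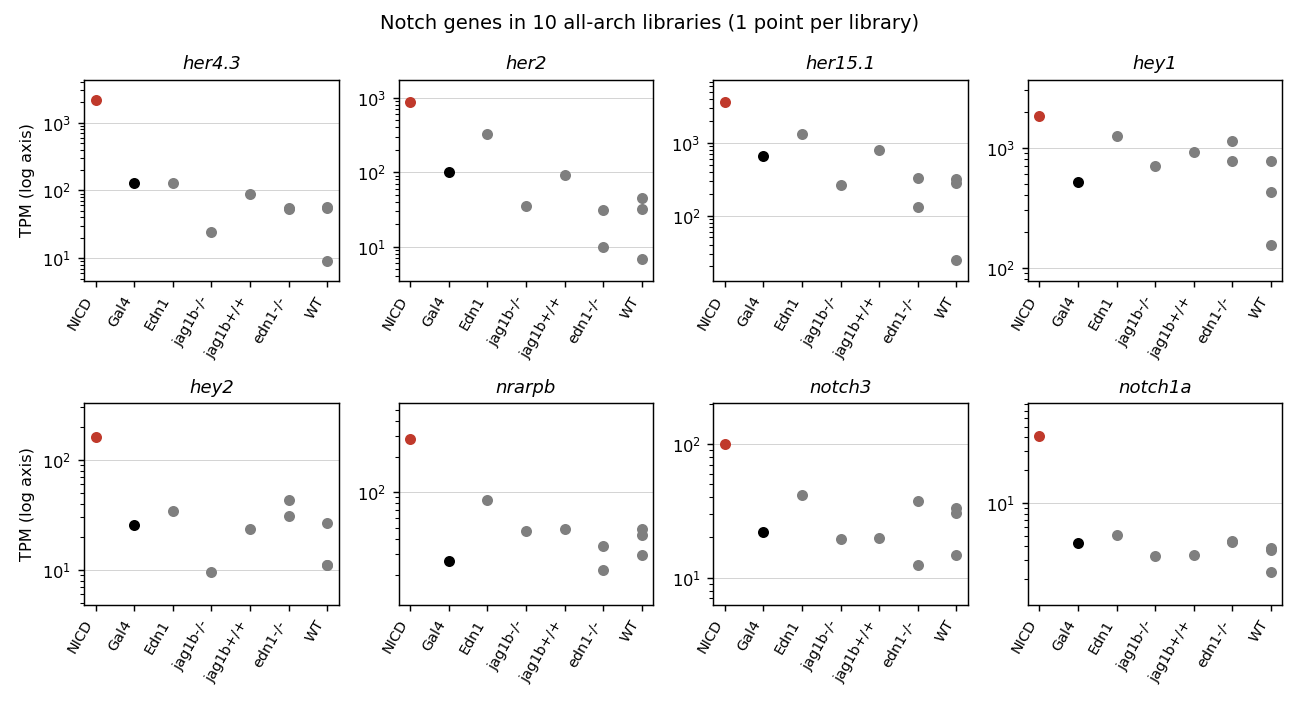
TPM on a log axis for 8 Notch genes in the 10 all-arch libraries, 1 point per library, with NICD in red, Gal4 in black and the rest in grey. The NICD point is the highest in every panel, at 2152 TPM for her4.3 and 40.9 TPM for notch1a.

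Another 4 genes that rose are known by clone names, si:ch211-193l2.3, si:ch211-193l2.4, si:ch211-193l2.5 and si:ch211-193l2.7. In that order they stood at 6814, 5475, 8379 and 220 TPM with NICD, against 394, 376, 624 and 15.5 with Gal4 (4.11, 3.86, 3.74 and 3.74). In RefSeq's gene order si:ch211-193l2.7, given there as a long non-coding RNA, lies just past her2, her15.1, her15.2 and si:ch211-193l2.6. The rest have no annotation in the tables used here, and their sharing of reads with neighbours was not tested.

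Of 10 ligand genes found, 6 reached 10 TPM, of which 3 rose and 1 fell under all 3 scalings. Among all genes 5.04% rose and 2.09% fell. The Jagged ligand gene jag1b stood at 81.7 TPM with NICD, against 33.8 with Gal4, 30.2 with Edn1, 5.85 in jag1b-/-, 31.6 in jag1b+/+, 37.4 and 62.8 in edn1-/- and 29.1, 38.4 and 40.8 in WT (1.25). The Delta ligand genes dlc and dld stood at 68.3 and 27.6 TPM with NICD, against 20.1 and 6.91 with Gal4 (1.71 and 1.85). For all 3 of these the NICD library was the highest of the 10. The vascular ligand gene dll4 fell, to 5.17 TPM with NICD against 12.2 with Gal4 and 9.49, 15.6 and 13.3 in WT (-1.10), the lowest of the 10. As dld reached 10 TPM with NICD alone and dll4 with Gal4 alone, each could only be called in that direction. With the minimum set on the WT mean, 4 of the 10 ligand genes were read, of which 2 rose and 1 fell.

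The processing machinery moved less. Of 31 genes found, 12 reached 10 TPM, 2 rose and 0 fell, with a median difference of 0.50. Among all genes 5.04% rose and 2.09% fell, with a median of 0.15. Of those that rose, dtx1, a Deltex ubiquitin ligase gene, stood at 17.1 TPM with NICD and 5.22 with Gal4 (1.54). The other, adam10a, a gene for a protease that cuts Notch, stood at 19.7 and 6.84 (1.40). Both reached 10 TPM with NICD alone, so they could only be higher there. With the minimum set on the WT mean, 10 of the 31 were read, 0 rose and 0 fell, with a median of 0.36. The level of rbpja, which encodes the DNA-binding partner of NICD, was 80.5 TPM with NICD and 42.8 with Gal4 (0.90, not called), against 52.6, 80.5 and 82.5 in WT.

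Ventral arch genes stood lower with NICD. Of 18 listed, 12 reached 10 TPM, 0 rose and 7 fell, against 2.09% that fell among all genes, with a median difference of -1.52. All 7 passed the rule on the WT spread, and 7 fell under both other scalings as well. As dlx4a and dlx4b reached 10 TPM with Gal4 alone, they could only be called lower. With the minimum set on the WT mean, 13 of the 18 were read, of which 0 rose and 7 fell. Among all genes at that level 3.15% rose and 2.03% fell. NICD was the lowest of the 10 libraries for 7 of the 12, against 9.72% of all genes. It lay below all 3 WT libraries for 11 of the 12, against 1881 of all 6037 genes. Here as elsewhere in bulk libraries, fewer cells of a kind and less RNA per cell cannot be told apart.

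The transcription factor gene hand2, a regulator of the ventral arch, stood at 104 TPM with NICD, against 769 with Gal4, 887 with Edn1, 1445 in jag1b-/-, 1282 in jag1b+/+, 461 and 682 in edn1-/- and 729, 639 and 856 in WT (-2.88). The NICD library was the lowest of the 10 and did not overlap with the others. The widest gap between WT libraries for hand2 was 0.42 on the same scale.

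Among the Dlx genes, which encode homeodomain factors that pattern the lower jaw, dlx5a stood at 105 TPM with NICD, against 623 with Gal4, 1220.2 with Edn1, 960.3 in jag1b-/-, 863 in jag1b+/+, 209 and 249 in edn1-/- and 555, 893 and 562 in WT (-2.55). The level of dlx3b was 25.5 TPM with NICD, against 329 with Gal4, 608 with Edn1, 489 in jag1b-/-, 435 in jag1b+/+, 7.18 and 23.5 in edn1-/- and 182, 455 and 249 in WT (-3.64). For dlx5a the NICD library lay below both edn1-/- libraries, and for dlx3b above them. The level of dlx4a was 3.38 TPM with NICD, against 87.2 with Gal4, 217.7 with Edn1, 5.22 and 7.40 in edn1-/- and 74.2 to 196.9 in the jag1b and WT libraries (-4.33). The level of dlx4b was 3.47 TPM with NICD and 51.6 with Gal4 (-3.55), and dlx6a missed the level of 10 TPM, at 0.948 with NICD and 5.97 with Gal4.

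The homeobox genes msx1a and msx1b, named msxe and msxb in the files, fell less, to 21.5 and 65.7 TPM with NICD against 73.2 and 164.9 with Gal4 (-1.72 and -1.32). For both, NICD was the lowest of the 10 libraries. Other ventral genes were not called. The Msx genes msxd and msxc stood at 85.6 and 217.7 TPM with NICD against 116.6 and 258.7 with Gal4, and the homeobox gene gsc at 66.8 and 71.5. The forkhead genes foxf1 and foxf2a stood at 53.3 and 77.7 TPM with NICD, against 64.3 and 111.8 with Gal4. Below 10 TPM, edn1, the ligand gene, stood at 0.0493 TPM with NICD and 1.37 with Gal4.

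**Figure D3:**
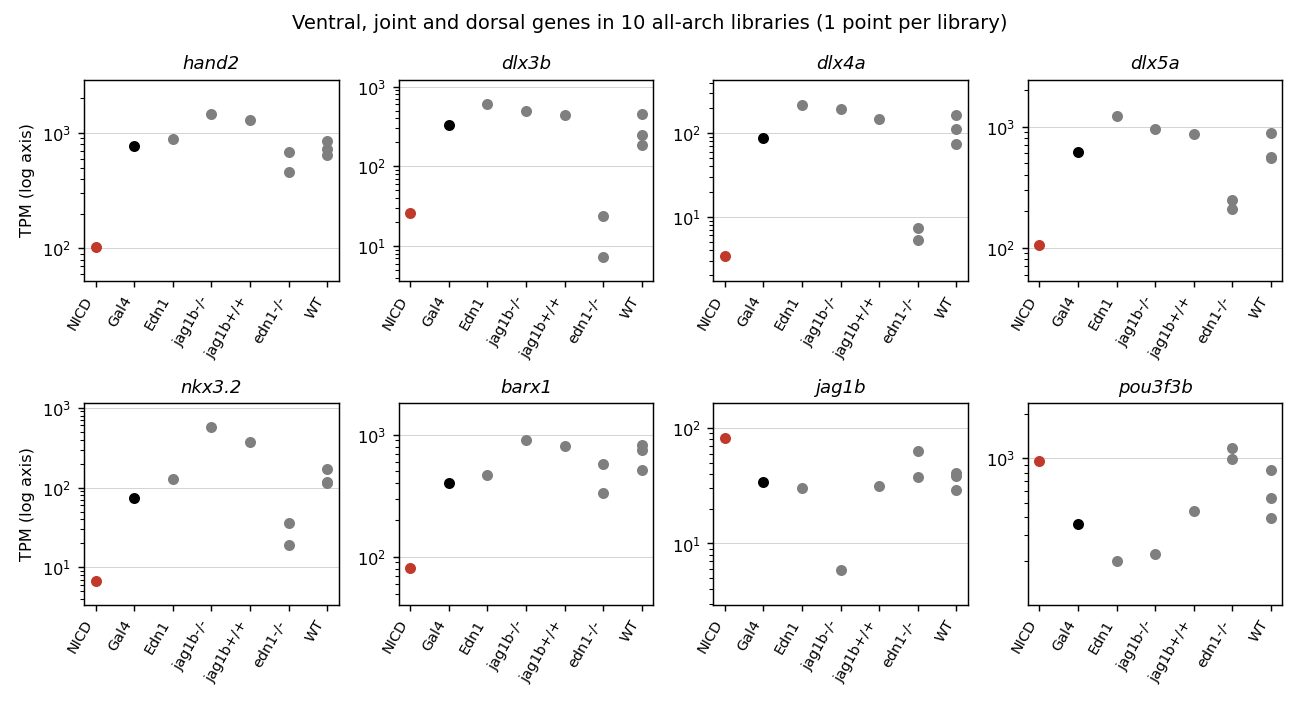
TPM on a log axis for 8 ventral, joint and dorsal genes in the 10 all-arch libraries, 1 point per library, with NICD in red, Gal4 in black and the rest in grey. NICD is lowest for hand2 (104 TPM), dlx4a, dlx5a, nkx3.2 and barx1, above both edn1-/- points for dlx3b, highest for jag1b (81.7 TPM) and below both edn1-/- points for pou3f3b.

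Genes of the intermediate arch and the jaw joint moved unevenly. Of 12 listed, 10 reached 10 TPM, of which 1 rose and 3 fell, against 5.04% and 2.09% of all genes. The jaw joint gene nkx3.2 stood at 6.75 TPM with NICD, against 74.9 with Gal4, 128 with Edn1, 567 in jag1b-/-, 374 in jag1b+/+, 36.3 and 19.0 in edn1-/- and 169, 119 and 114 in WT (-3.29). The homeobox gene barx1, known for arch cartilage, stood at 80.4 TPM with NICD, against 400.4 with Gal4, 468 with Edn1, 902 in jag1b-/-, 805 in jag1b+/+, 336 and 576 in edn1-/- and 514, 756 and 825 in WT (-2.30). For nkx3.2 and barx1 the NICD library was the lowest of the 10. As nkx3.2 reached 10 TPM with Gal4 alone, it could only be called lower. With the minimum set on the WT mean, 10 of the 12 listed genes were read, of which 1 rose and 3 fell. The homeobox gene emx2 also fell, to 67.9 TPM with NICD against 158.7 with Gal4 (-1.21). The LIM-homeobox gene lhx8b rose, to 42.0 TPM with NICD against 14.2 with Gal4 (1.5), while its relatives lhx6 and lhx8a were not called, at 18.7 and 20.5 TPM with NICD against 24.9 and 23.9 with Gal4. The BMP antagonist gene grem2b stood at 95.9 TPM with NICD and 91.7 with Gal4. The Iroquois homeobox gene irx7, at 10.2 TPM with NICD and 19.8 with Gal4, passed the rule under median-of-ratios and quantile scaling alone (-1.07 and -1.09).

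All 12 dorsal arch genes listed reached 10 TPM, of which 4 rose and 0 fell under all 3 scalings, against 5.04% that rose and 2.09% that fell among all genes. Their median difference was 0.71. The Gal4 library lay below all 3 WT libraries for 6 of the 12, and for 2731 of all 6037 genes. The 4 were jag1b and hey1, given above, pou3f3b and fgf20b. The POU-domain gene pou3f3b stood at 954 TPM with NICD, against 355 with Gal4, 200.2 with Edn1, 222 in jag1b-/-, 437 in jag1b+/+, 989 and 1182 in edn1-/- and 391.7, 826.5 and 539 in WT (1.42). Both edn1-/- libraries lay above NICD for this gene. The ligand gene fgf20b stood at 56.2 TPM with NICD, against 23.6 with Gal4, 38.7 with Edn1, 0.727 in jag1b-/-, 19.0 in jag1b+/+, 22.5 and 18.6 in edn1-/- and 14.7, 19.6 and 16.2 in WT (1.22). The nuclear receptor gene nr2f1b fell just short of the rule, at 281.6 TPM with NICD and 143 with Gal4 (0.97). The nuclear receptor gene nr2f5 and the eyes absent gene eya1 were not called either, at 74.0 and 29.6 TPM with NICD against 46.4 and 17.1 with Gal4, and six1a stood at 365 against 417.

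Some genes of the mural cell list differed widely. Of 34 found, 9 reached 10 TPM and 7 of them rose, but 5 of these 7 reached that level in the NICD library alone, so these could only be higher with NICD, and the count says nothing of the list. With the minimum set instead on the mean of the 3 WT libraries, 6 of the 34 were read, of which 3 rose (PDGFRB, notch3 and myl9b) and 0 fell, against 3.15% that rose and 2.03% that fell among all 6256 genes at that level. The genes abcc9 and kcnj8 encode the subunits of a potassium channel of pericytes. The level of abcc9 was 49.0 TPM with NICD, against 1.3 with Gal4, 0.592 with Edn1, 0.369 in jag1b-/-, 0.387 in jag1b+/+, 0.168 and 0.896 in edn1-/- and 0.463, 1.35 and 1.43 in WT (4.44). The level of kcnj8 was 137.7 TPM with NICD, against 7.09 with Gal4, 8.53 with Edn1, 2.84 in jag1b-/-, 4.16 in jag1b+/+, 5.37 and 6.44 in edn1-/- and 3.36, 17.2 and 8.96 in WT (4.1). Neither gene overlapped between NICD and the other 9 libraries.

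The receptor tyrosine kinase gene pdgfrb, a pericyte marker named PDGFRB in the files, stood at 27.7 TPM with NICD, against 4.41 with Gal4 and 3.25 to 12.6 in the other 8 libraries (2.40). The channel subunit gene kcne4 stood at 13.4 TPM with NICD and 2.44 with Gal4 (2.07). The adhesion gene mcamb and the myosin light chain gene myl9b stood at 15.9 and 93.7 TPM with NICD, against 5.12 and 41.8 with Gal4 (1.46 and 1.15), and neither passed the rule on the WT spread. With median-of-ratios scaling myl9b was no longer called (0.96). The seventh gene that rose, notch3, is also a Notch receptor gene. The forkhead genes foxc1a and foxc1b, which mural cells share with arch crest, stood at 430.4 and 386 TPM with NICD and 365 and 382 with Gal4.

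Several smooth muscle markers of the list were near 0, though the myosin light chain gene myl9b, given above, was not. The genes acta2, tagln, myh11a, cnn1a and desmb stood at 0 to 0.563 TPM with NICD and 0.0179 to 0.314 with Gal4, and rgs5a, a pericyte marker, at 0.0899 and 0.0724. The summed level of the list was 1294 TPM with NICD and 863 with Gal4, against 998 to 2058 in WT, and foxc1a and foxc1b made up much of each sum.

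Endothelial genes did not move together. Of 27 listed, 5 reached 10 TPM, of which sox18 rose and dll4 fell. The first reached 10 TPM with NICD alone and the second with Gal4 alone, so each could only be called in that direction. With the minimum set on the WT mean, 4 of the 27 were read, of which 0 rose and 1 fell. Among all genes at that level 3.15% rose and 2.03% fell. The vessel transcription factor gene sox18 stood at 39.8 TPM with NICD, against 1.70 with Gal4, 1.88 with Edn1, 3.29 in jag1b-/-, 4.2 in jag1b+/+, 0.121 and 2.09 in edn1-/- and 1.16, 1.56 and 3.70 in WT (3.92). The defining genes kdrl, cdh5 and pecam1 stood at 4.26, 0.772 and 0.0579 TPM with NICD, against 4.77, 0.821 and 0.0264 with Gal4. The summed level of the list was 155 TPM with NICD and 134 with Gal4, against 117 to 234 in WT. Outside the list, mmrn2a, which encodes a multimerin, a matrix protein, stood at 56.4 TPM with NICD and 5.26 with Gal4 (3.2).

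**Figure D4:**
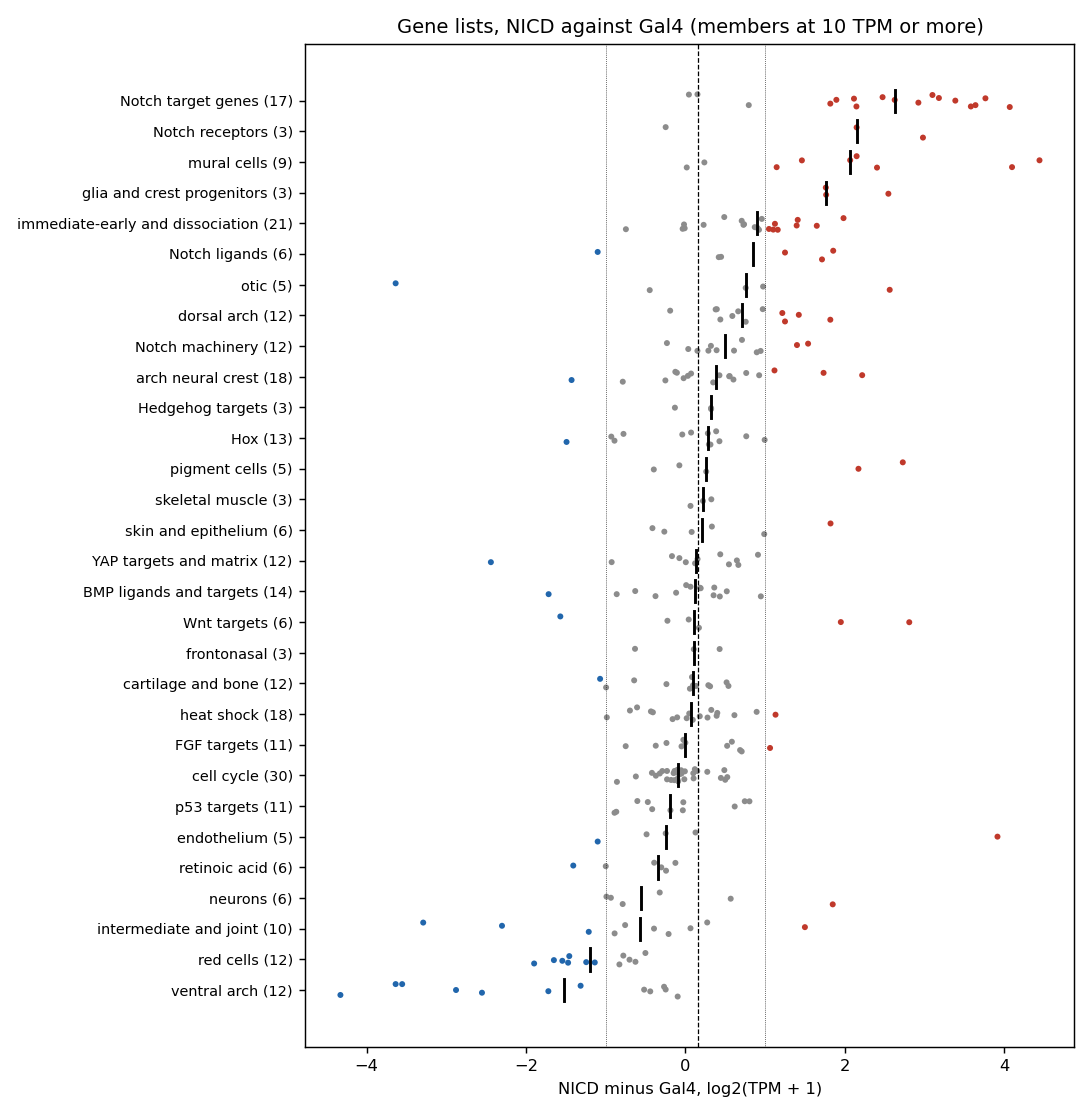
Difference between NICD and Gal4 in log2(TPM + 1) for each list member that reached 10 TPM, 1 point per gene and 1 row per list with at least 3 such members (their number in brackets). Red points rose, blue points fell, black bars are list medians, the dashed line is the median of all genes (0.15) and dotted lines mark differences of 1 and -1. Notch target genes lie to the right and ventral arch and red cell genes to the left. Of the 9 mural genes, 5 reached 10 TPM with NICD alone, and of the 12 ventral genes, 2 with Gal4 alone.

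Among the 20 largest rises past the WT spread, the first was stc2a, which encodes a stanniocalcin, a secreted glycoprotein. It stood at 283 TPM with NICD, against 9.28 with Gal4, 13.1 with Edn1, 0.967 in jag1b-/-, 5.27 in jag1b+/+, 7.36 and 9.56 in edn1-/- and 5.85, 12.6 and 8.39 in WT (4.79). The actin gene acta1a stood at 117.7 TPM with NICD and 9.87 with Gal4 (3.45), and the G protein-coupled receptor gene gpr17 at 120.4 and 11.8 (3.25). Lower in level were a plexin B2 gene named PLXNB2 (3 of 5) in the files at 16.7 TPM with NICD and 0.253 with Gal4 (3.82), the tetraspanin gene tspan33 at 17.7 and 1.11 (3.15), the unannotated si:ch73-193i22.1 at 12.1 and 0.490 (3.14), and the parvalbumin gene pvalb9 at 12.7 and 0.670 (3.03). NICD was the highest of the 10 libraries for all 20, against 8.93% of all genes. The 20 were chosen for a high NICD value, so this was largely set in advance. Of the genes named here, all but gpr17 reached 10 TPM with NICD alone, so they could only be called higher.

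Among the 20 largest falls past the WT spread, ventral and joint genes made up 6 (hand2, dlx3b, dlx4a, dlx4b, dlx5a and nkx3.2). The ventral and joint lists held 12 and 10 of the 6037 genes. Of the 20, only dlx3b, hand2, dlx5a and ctgfb reached 10 TPM with NICD as well. The rest reached it with Gal4 alone, so they could only be called lower. The gene fgfbp2a, for an FGF-binding protein, stood at 0.339 TPM with NICD, against 33.7 with Gal4, 94.9 with Edn1, 88.8 in jag1b-/-, 67.1 in jag1b+/+, 6.71 and 6.76 in edn1-/- and 31.3, 54.5 and 47.2 in WT (-4.69), the lowest of the 10. The matricellular gene ctgfb stood at 20.4 TPM with NICD, against 115 with Gal4, 895 with Edn1, 4.53 and 6.37 in edn1-/- and 53.6, 147 and 38.2 in WT (-2.44). For others it was the Gal4 library that stood apart. The largest fall, si:dkey-97i18.5, stood at 0.226 TPM with NICD and 70.4 with Gal4 (-5.87), but at 0.305 to 2.1 in the other 8 libraries. The chemokine gene ccl38a.5 was listed at 0 in every all-arch library except Gal4, at 10.9 TPM, and IFITM3 stood at 1.24 TPM with NICD, 16.3 with Gal4 and 1.04 to 6.75 in the rest.

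Markers of arch crest and its precursors were checked next. Of 19 arch crest genes, 18 reached 10 TPM, 3 rose and 1 fell, with a median difference of 0.39. Among all genes 5.04% rose and 2.09% fell, with a median of 0.15. The sort genes stood at 47.0 TPM (fli1a) and 304 TPM (sox10) with NICD, against 31.8 and 64.5 with Gal4. For sox10, which marks early crest and glia, the other libraries stood at 52.3 with Edn1, 37.7 in jag1b-/-, 54.4 in jag1b+/+, 20.5 and 53.1 in edn1-/- and 12.6, 46.2 and 19.3 in WT (2.22). The endothelin receptor gene ednrab also rose, to 238 TPM with NICD against 70.9 with Gal4 and 12.9, 21.1 and 15.7 in WT (1.73). The crest gene snai1a rose to 374 TPM with NICD against 172 with Gal4 (1.12), but was not called under either other scaling. The forkhead gene foxd1 fell to 122 TPM with NICD against 331 with Gal4 (-1.43). The ectomesenchyme genes twist1a, prrx1a and dlx2a were not called, at 522, 250.2 and 768 TPM with NICD against 900.4, 245 and 839 with Gal4.

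Markers of other cells moved with these results. Of 9 genes of glia and crest progenitors found, 3 reached 10 TPM and all 3 rose, against 5.04% of all genes. These were fabp7a at 966 TPM with NICD and 164 with Gal4 (2.55), foxd3 at 126 and 36.3 (1.77) and sox2 at 78.2 and 22.3 (1.76), of which fabp7a alone passed the rule on the WT spread. The summed level of that list was 1186 TPM with NICD, against 230 with Gal4, 178 with Edn1 and 63.9, 315 and 96.7 in WT, while its myelin genes mbpa and plp1b stood at 0 and 0.432 TPM with NICD. The 3 WT libraries sorted by sox10 alone were taken at 20, 28 and 36 hours, so they differ from the all-arch libraries in stage as well as in sort. Of the 917 genes higher in all 3 than in the WT all-arch libraries, 333 reached 10 TPM here, and 87 of them rose (26.1%) and 6 fell. They made up 28.6% of the genes that rose, 4.76% of those that fell and 5.52% of all. Read from the 36-hour library alone, the set held 475 genes, of which 117 rose (24.6%) and 9 fell. Of the 89 such genes of the 3 WT libraries sorted by fli1a alone, all at 36 hours, 14 rose and 21 fell, or 4.61% of the genes that rose, 16.7% of those that fell and 1.47% of all. In these sets from the sox10 and fli1a sorts, members that reached 10 TPM with NICD alone could only be higher with NICD. Those that reached it with Gal4 alone could only be lower. Over all genes, 703 reached it with NICD alone and 225 with Gal4 alone, so these shares depend in part on the minimum. What these markers contribute to the differences above was not tested.

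Red cell genes ran the other way, where 5.04% of all genes rose and 2.09% fell. Of 12 at 10 TPM, 7 fell and 0 rose, none past the WT spread, and their sum was 3312.5 TPM with NICD, against 8340.05 with Gal4, 1014 with Edn1 and 769, 13804 and 1571 in WT. Of 6 skin genes at 10 TPM, cldnb, for a claudin, alone rose, to 238 TPM with NICD against 66.6 with Gal4 (1.82). Of 5 otic genes, the otolith gene stm rose to 25.7 against 3.51 (2.56) and dlx3b fell. Of 5 pigment genes (median 0.26), tyrp1b and pmela rose to 11.2 and 15.5 TPM with NICD, against 1.71 and 1.5 with Gal4. The pigment sum was 192 TPM with NICD and 183 with Gal4. As stm, tyrp1b and pmela reached 10 TPM with NICD alone, they could only be higher there. With the minimum set on the WT mean, 2 of 8 skin, 0 of 3 otic and 0 of 3 pigment genes rose, and 1 otic gene fell. Sums for leukocytes were 149 TPM with NICD and 101 with Gal4 against 55.1 to 1647 in WT, and for skeletal muscle 85.7 and 82.3 against 1184 to 2861. None of the heart genes reached 10 TPM.

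Immediate-early genes, which tissue dissociation is known to raise, were also read. Of 21 at 10 TPM, 8 rose and 0 fell, against 5.04% that rose among all genes, with a median difference of 0.9, and 4 and 5 rose under median-of-ratios and quantile scaling. Their sum was 49403 TPM with NICD and 24479 with Gal4, against 33539 with Edn1 and 45418, 34542 and 48278 in WT. Gal4 was the lowest of the 10 libraries for 8 of the 21. NICD lay within the WT range for 11 of the 21, and for 2967 of all 6037 genes. The list of heat shock genes, by contrast, held 18 at this level of which 1 rose (serpinh1a, a collagen chaperone gene) and 0 fell, with a median of 0.07 and a sum of 18802 TPM with NICD against 18256 with Gal4. The sign of that median turned under median-of-ratios and quantile scaling (-0.12 and -0.04), under which dnajb1b, a co-chaperone gene, fell (-1.18 and -1.1), and serpinh1a was not called under median-of-ratios scaling (0.94). For all genes, Gal4 was the lowest of the 10 libraries in 1223 of the 6037, and NICD in 587.

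The remaining lists showed few calls, where 5.04% of all genes rose and 2.09% fell. None of 30 cell cycle genes and none of 11 p53 target genes were called, with medians of -0.1 and -0.19. Under median-of-ratios and quantile scaling 1 cell cycle gene (ccne2) and 2 p53 target genes (gadd45aa and plk3) fell. Among BMP genes, id2b fell to 9.27 TPM with NICD against 32.8 with Gal4 (-1.72), as 1 of 14. Among Wnt genes, the secreted antagonists sfrp5 and sfrp1a rose to 38.0 and 30.6 TPM with NICD, against 4.56 and 7.18 with Gal4 (2.81 and 1.95), and the target gene sp5a fell to 3.98 against 13.8 (-1.57). Of 12 cartilage and bone genes, sox9a fell to 6.49 TPM with NICD against 14.7 with Gal4 (-1.07), within the WT spread. As sfrp5 and sfrp1a reached 10 TPM with NICD alone, and id2b, sp5a and sox9a with Gal4 alone, each could only be called in that direction. With the minimum set on the WT mean, 1 of 6 Wnt genes rose and 1 fell. At that minimum 1 of 13 BMP genes and 1 of 14 cartilage and bone genes fell, and none rose. Single members were called among FGF targets (spry4, rose), Hox genes (hoxa1a, fell) and retinoic acid genes (cyp26a1, fell), and under the other scalings spry4 was not called and further Hox and retinoic acid genes fell.

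The jag1b libraries share no sample with NICD and Gal4, and jag1b-/- cells carry a mutated Notch ligand gene instead of receiving NICD. Between jag1b-/- and jag1b+/+ (1 library each, no test), 0.7% of 5718 genes were lower in jag1b-/- by the same rule and 0.192% were higher. Of the 304 genes that rose with NICD, 156 reached 10 TPM in a jag1b library, and 11 of these were lower in jag1b-/- (7.05%) and 0 higher, against 33 lower (0.614%) and 4 higher of all 5376 genes at that level in both comparisons. Of 103 genes that fell with NICD, 7 were lower in jag1b-/- (6.80%) and 1 was higher. Both shares moved with the setting: they were 16.1% of genes that rose and 14.3% of genes that fell on the deposited scale, and 14.3% and 11.4% with a minimum of 50 TPM. On the deposited scale all values were smaller by 1 constant while the pseudocount and the minimum were kept, so it acted as a stricter minimum. With globin genes left out they were 7.05% and 1.98%.

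The members of those groups differed. The 11 genes higher with NICD and lower in jag1b-/- were her4.1, her4.3, her4.4, both her4.2 entries, her15.1, her15.2, her2, hey2, fgf20b and jag1b, itself the mutated gene. For example, her4.1 stood at 54.2 TPM in jag1b-/- and 214 in jag1b+/+ (-1.96), her2 at 34.8 and 91.3 (-1.37), hey2 at 9.62 and 23.8 (-1.22) and fgf20b at 0.727 and 19.0 (-3.53). The her4 and her15 entries are close copies, and with the copies of each summed to 1 entry, 6 of 151 entries that rose were lower in jag1b-/- (3.97%). The 7 genes lower in both comparisons were 5 globin genes (hbbe1.1, hbbe1.2, hbbe2, hbbe3 and hbae3) and the unannotated si:ch73-166c6.1 and si:dkeyp-3b12.6. No ventral or joint gene was called between the jag1b libraries; hand2, dlx5a and nkx3.2 differed there by 0.17, 0.15 and 0.60. The mural genes kcnj8 and abcc9 stood at 2.84 and 0.369 TPM in jag1b-/- and 4.16 and 0.387 in jag1b+/+, under the level of the rule.

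**Figure D5:**
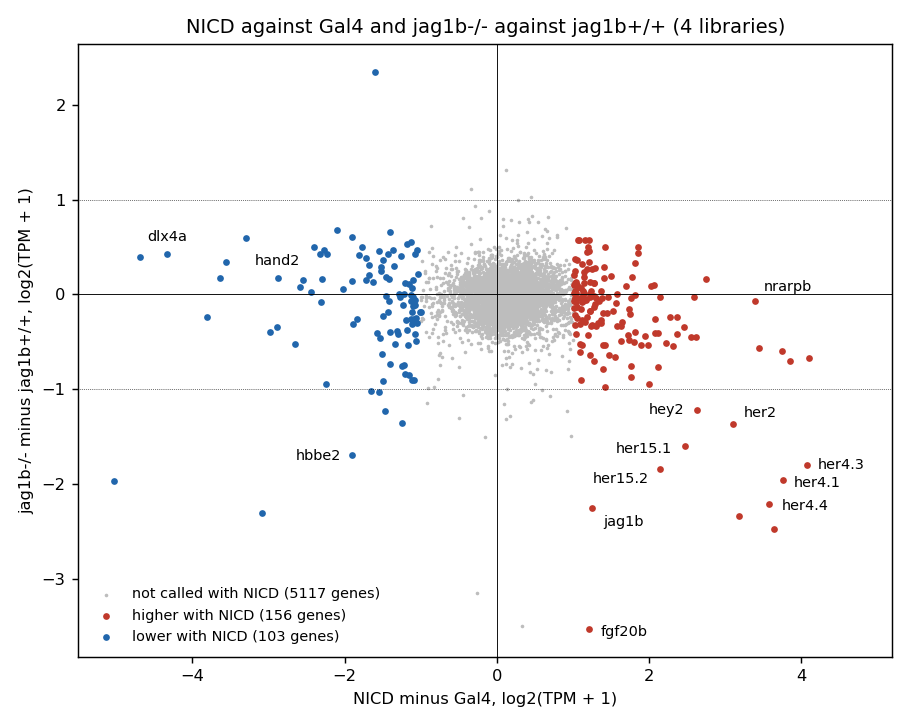
Difference between NICD and Gal4 (horizontal axis) and between jag1b-/- and jag1b+/+ (vertical axis), both in log2(TPM + 1), for the 5376 genes at 10 TPM or more in each comparison, 1 library per condition. Red points rose with NICD (156) and blue points fell (103); dotted lines mark differences of 1 and -1 between the jag1b libraries. The her4, her15, her2 and hey2 genes, jag1b and fgf20b lie at the lower right.

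Genes that depend on Edn1 were read in the same way. Genes lower in both edn1-/- libraries than in all 3 WT libraries (mean difference of at least 1, 10 TPM in WT) numbered 36 at 10 TPM in NICD or Gal4, of which 11 fell with NICD (30.6%, against 2.09% of all genes) and 2 rose (5.56%, against 5.04% of all genes), with a median of -0.44. The 11 included dlx3b, dlx4a, dlx4b, dlx5a, nkx3.2, fgfbp2a and ctgfb. Of the 11, dlx4a, dlx4b, nkx3.2, fgfbp2a, si:dkey-108k21.23 and LRRN3 reached 10 TPM with Gal4 alone, so they could only be called lower. Conversely, si:dkey-56d12.4, which rose, reached it with NICD alone. The minimum cut this set from 91 genes to 36, so its shares depend in part on the minimum. Of 25 genes higher in edn1-/-, 9 rose with NICD (36.0%) and 2 fell (8.0%), with a median of 0.42, among them hey2, her4.1, her4.4, both her4.2 entries and cldnb. With the her4 copies summed to 1 entry and the her15 copies to another, 6 of 22 rose and 2 fell (0.25). The minimum cut this second set from 42 genes to 25. In it LRAT and zgc:195170, which fell, reached 10 TPM with Gal4 alone, and BX927387.1 and si:ch211-108d22.2, which rose, with NICD alone. Each of these could only be called in that direction. These sets hang on single libraries. Without WT replicate 1 the first set held 189 genes, of which 22 fell and 20 rose (median 0.29), and without edn1-/- replicate 2 it held 447, of which 42 fell and 26 rose (0.06). Without WT replicate 2 it held 45, of which 23 fell and 3 rose (-1.05), and without WT replicate 3 its median was -0.09. For the second set the median was 0.79 without WT replicate 2, 0.11 without WT replicate 3, and 0.27 and 0.26 without edn1-/- replicates 1 and 2. That set held 46 genes without WT replicate 1, 38 without WT replicate 3, and 80 and 270 without edn1-/- replicates 1 and 2, of which 11, 10, 23 and 29 rose.

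Genes set apart in ventral cells sorted by hand2 were called in both directions. Of 63 genes higher in both hand2-sorted libraries than in all 3 WT all-arch libraries, 12 rose with NICD and 12 fell (19.0% each, against 5.04% that rose and 2.09% that fell among all genes). Their median of 0.09 changed sign under median-of-ratios scaling (-0.16), quantile scaling (-0.2) and a minimum of 1 TPM (-0.23). Those that fell included hand2, the gene of the sort, barx1, id2b and dll4, and those that rose included her4.3, her4.4, her12, sfrp5 and apoeb. The her4 entries are close copies and were not summed here. Only hand2, barx1, fzd9b and ptgdsb of those that fell reached 10 TPM in both libraries. The rest reached it with Gal4 alone, and sfrp5, CU469570.2 and si:ch211-108d22.2 with NICD alone, so each could only be called in that direction. The minimum cut this set from 149 genes to 63. Of 287 genes lower in the hand2-sorted libraries, 42 rose (14.6%) and 18 fell (6.27%), with a median of 0.36. The minimum cut that set from 378 genes, so the shares of both sets depend in part on it. These sets changed size with single libraries too: the first held 132 and 181 genes without hand2-sorted replicates 1 and 2, of which 20 rose in each case and 18 and 16 fell. The second held 571 genes without WT replicate 1 and 921 without hand2-sorted replicate 2, of which 69 and 70 rose and 28 and 35 fell.

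Heat-shocked Edn1 was compared with the same Gal4 library, so the values stand side by side without a count of overlap. The median difference from Gal4 of the 12 ventral genes was -1.52 with NICD and 0.31 with Edn1. That of the 17 Notch target genes was 2.63 with NICD and 0.43 with Edn1. For hand2 the values were 104 TPM with NICD, 887 with Edn1 and 769 with Gal4, and for dlx4a 3.38, 217.7 and 87.2.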

How the data were processed

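The authors deposited TPM values for 31953 genes in 19 columns, 1 per library. Per the labels' protocols, total RNA (RNeasy Micro) was amplified to cDNA with SMARTer chemistry, and Kapa Hyper libraries were sequenced from both ends. The submitters' processing notes name the build GRCz10 and the programs TopHat2 and Partek, with no version. Deposited TPM columns each summed to about 93168.2, so all were multiplied by 1 constant (10.7333) to reach 1000000, which leaves ratios unchanged. Depth is unknown. Differences are of log2(TPM + 1), NICD minus Gal4, which understates the change of low genes. With 1 library per condition there is no test. WT replicates may be technical, since nothing says they came from separate clutches.

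The comparison, the 33 gene lists (565 of 572 members found) and the tests were chosen with earlier results of these data known. Named genes are list members, and the 20 largest differences in each direction past the fold and the WT spread; other genes named in the jag1b, edn1 and hand2 paragraphs or only under another scaling were chosen after their values were seen. Gene names come from the files; 19 held a number in place of a name, 18 of them could be restored from their identifiers, and 26121 identifiers (81.7%) were found in the reference table. RefSeq's table for GRCz12tu gave names and gene order, and no coordinates or sequences were used. Alternatives were 2 pseudocounts (0.1 and 10), the deposited scale, median-of-ratios and quantile scaling, globins left out, minimum levels of 1 and 50 TPM, a log2 difference of 2, and each WT, hand2 and edn1-/- replicate left out; added after the data were seen were a minimum on the WT mean, close copies summed, and sox10 cells of 36 hours alone. The fold rule was tested on simulated data, but the outcome is not reported here and nothing above rests on it. Python 3.11.15, numpy 2.4.6 and pandas 2.3.3 were used, and figures were drawn with matplotlib 3.10.9.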

Additional observations from a re-analysis of the deposited data

How the results depend on the processing

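All 240 recomputed values of the 40 named genes with the largest differences kept their sign. This was largely set in advance, since the genes were chosen for large differences. A changed pseudocount or the deposited scale also cannot turn a sign. The count of genes higher and lower with NICD was 128 and 57 with a pseudocount of 10 (108 and 37 past the WT spread), 65 and 24 on the deposited scale (53 and 13), 663 and 472 with a minimum of 1 TPM (536 and 324), 102 and 43 with a minimum of 50 TPM (73 and 26) and 70 and 32 with a log2 difference of 2. The deposited scale kept the pseudocount and the minimum on smaller values, so its results here are those of a larger pseudocount and a stricter minimum. Lower genes numbered 192 with median-of-ratios scaling (120 past the WT spread) and 195 with quantile normalization (123). In alternatives chosen after seeing the data, 79 lower genes lay below all 3 WT libraries and 62 were the lowest of the 10 all-arch libraries. As these genes were chosen for a low NICD value, both counts were in part set in advance. With the minimum of 10 TPM set on the mean of the WT libraries, also chosen after seeing the data, the ventral median was -1.32 and the mural median 0.69. The ventral median was -1.30 with a pseudocount of 10, -1.20 on the deposited scale, -1.71 with median-of-ratios scaling and -1.24 with a minimum of 1 TPM, and the mural median was 1.0, 0.23, 0.72 and 1.15 with a pseudocount of 10, the deposited scale and minimums of 1 and 50 TPM. The share of genes higher with NICD that were lower in jag1b-/- was 16.1% on the deposited scale and 14.3% with a minimum of 50 TPM. The median of genes higher in edn1-/- was 1.73 on the deposited scale, and that of genes lower in edn1-/- was -0.00895 on the deposited scale and -2.17 with a minimum of 50 TPM. Leaving out 1 library at a time gave -1.05 to 0.29 for genes lower in edn1-/- and 0.107 to 0.79 for genes higher. The median of genes higher in hand2-sorted cells was -0.16 with median-of-ratios scaling, -0.20 with quantile normalization and -0.23 with a minimum of 1 TPM. The causes were not tested. No paired analysis was possible because NICD and Gal4 have 1 library each, and no test was made. Depth is unknown, so no limit from it can be given.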
